A study of Homo sapiens with 73 samples.

Results

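HLA-B, HLA-C, HLA-E, B2M, TAP1, TAP2, TAPBP, NLRC5 and PSMB9 are 9 genes of MHC class I antigen presentation, chosen by symbol from the 36233 genes of the deposited expression table. All 9 were found. With a filter of a mean value of at least 10 over all libraries, 14565 genes were tested, among them 8 of the 9. PSMB9, with a mean of 6.33, was left out and is described by its values. The libraries came from CHLA-9, an established Ewing sarcoma line with the EWSR1-FLI1 fusion, and were made from total RNA. From this line, 10 lineages were grown apart. Lineages R1 to R7 (49 libraries) received VDC (vincristine, doxorubicin and cyclophosphamide) at odd time points and EC (etoposide and cyclophosphamide) at even ones, each for 5 days at the concentration with a 70% effect, and then regrew without drug before sampling. Lineages R8 to R10 (23 libraries) were carried along with DMSO, the drug solvent, under the same numbering of time points 1 to 10. The untreated parental line gave 1 library, called time point 0 here. All groups thus share 1 cell line and 1 genotype, and the lineage was taken as the independent culture.

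MHC class I molecules show short peptides from inside the cell to CD8 T cells and natural killer cells. Proteasomes, including the interferon-inducible immunoproteasome, make the peptides, the TAP transporter moves them into the endoplasmic reticulum, and tapasin helps to load them onto a heavy chain paired with beta-2-microglobulin. NLRC5 is a transactivator that raises transcription of these genes, and interferons raise many of them together. Low class I expression is well known in Ewing sarcoma.

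HLA-B and HLA-C encode classical heavy chains, which present peptides to T cells. HLA-E encodes a heavy chain that binds leader peptides of other class I chains and is read by natural killer cell receptors. B2M encodes the shared light chain. TAP1 and TAP2 encode both subunits of the peptide transporter, TAPBP encodes tapasin, and PSMB9 encodes an immunoproteasome subunit. In GRCh38 (GENCODE v29), HLA-E lies on chromosome 6 from 30489467 to 30494205 (plus strand), HLA-C from 31268749 to 31272130, HLA-B from 31269491 to 31357188, TAP2 from 32821833 to 32838780, TAP1 from 32845209 to 32853978, PSMB9 from 32844136 to 32859585 (plus strand) and TAPBP from 33299694 to 33314387. Those without a strand named lie on the minus strand. B2M lies on chromosome 15 from 44711487 to 44718877 and NLRC5 on chromosome 16 from 56989485 to 57083531, both on the plus strand.

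Several of these genes overlap or resemble each other, so their values carry an uncertainty from read assignment that was not tested. The annotated span of HLA-B covers most of HLA-C on the same strand, whereas RefSeq starts it at 31353875. PSMB9 and TAP1 overlap on opposite strands. Of the 50-base stretches in annotated HLA-B transcripts, 2.51% occur in HLA-C or HLA-E transcripts as well, and 3.79% of those of HLA-C and 0.894% of those of HLA-E are shared in the same way. Against all other annotated genes of the region, the shares are 2.72% for HLA-B, 5.38% for HLA-C, 3.94% for HLA-E and 31.3% for TAP2. The annotation used by the authors and whether strand was counted are not given in the sources used here.

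The stretches around the start sites are shown for 5 members, because transcription factors of the pathway are known to act there. Each runs from 250 bases before to 50 after the gene start of RefSeq (GRCh38.p14), 5′ to 3′ on the gene's own strand. The first is HLA-B, chr6:31357130-31357429, minus strand. HLA-C is chr6:31272043-31272342, minus strand, B2M is chr15:44711267-44711566, plus strand, TAP1 is chr6:32853655-32853954, minus strand, and TAPBP is chr6:33314029-33314328, minus strand. HLA-B and HLA-C stand for chains that rose, B2M and TAP1 for members with smaller changes and TAPBP for the member with no detected change. Capitals mark matches to the letters searched on both strands: GAAANNGAA (interferon response element core), TTCNNNGAA (STAT core), TGACGTCA and TGACGCA (cyclic AMP response element and a like form), CCAAT (Y box) and GGGANTTCC and GGGACTTTC (NF-kB sites).
HLA-B: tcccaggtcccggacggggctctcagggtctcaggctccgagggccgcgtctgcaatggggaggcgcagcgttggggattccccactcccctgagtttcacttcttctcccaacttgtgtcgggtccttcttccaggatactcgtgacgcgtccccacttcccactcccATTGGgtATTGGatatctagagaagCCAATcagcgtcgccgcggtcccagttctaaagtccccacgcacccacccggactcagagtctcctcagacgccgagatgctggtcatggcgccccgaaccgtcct
HLA-C: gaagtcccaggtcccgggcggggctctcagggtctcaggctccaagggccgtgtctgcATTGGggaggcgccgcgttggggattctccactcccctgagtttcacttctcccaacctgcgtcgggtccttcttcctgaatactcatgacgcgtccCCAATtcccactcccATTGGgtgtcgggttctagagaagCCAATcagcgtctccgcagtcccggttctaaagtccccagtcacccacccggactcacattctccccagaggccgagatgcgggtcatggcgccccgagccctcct
B2M: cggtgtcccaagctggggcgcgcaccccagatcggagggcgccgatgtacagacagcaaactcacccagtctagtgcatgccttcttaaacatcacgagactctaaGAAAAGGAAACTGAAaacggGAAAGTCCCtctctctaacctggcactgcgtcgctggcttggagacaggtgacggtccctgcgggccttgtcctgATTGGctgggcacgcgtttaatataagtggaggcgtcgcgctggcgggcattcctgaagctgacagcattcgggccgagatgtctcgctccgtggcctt
TAP1: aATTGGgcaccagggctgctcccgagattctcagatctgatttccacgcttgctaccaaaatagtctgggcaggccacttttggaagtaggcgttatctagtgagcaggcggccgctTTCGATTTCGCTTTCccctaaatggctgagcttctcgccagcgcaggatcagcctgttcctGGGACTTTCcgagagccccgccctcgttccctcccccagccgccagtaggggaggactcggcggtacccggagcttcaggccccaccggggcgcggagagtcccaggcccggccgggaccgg
TAPBP: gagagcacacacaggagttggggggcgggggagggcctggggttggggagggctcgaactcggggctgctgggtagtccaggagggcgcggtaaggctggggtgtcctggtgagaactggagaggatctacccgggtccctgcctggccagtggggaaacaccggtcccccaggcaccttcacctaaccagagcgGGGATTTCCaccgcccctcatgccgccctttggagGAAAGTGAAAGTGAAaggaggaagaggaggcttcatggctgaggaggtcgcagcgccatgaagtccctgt

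The letters matched differed from member to member. The HLA-B stretch held CCAAT 3 times and that of HLA-C 4 times, and neither held the interferon core as spelled here. B2M, TAP1 and TAPBP each held GAAANNGAA as 2 overlapping matches, and TAP2 held it 1 time. B2M and TAP1 each had CCAAT and GGGACTTTC 1 time, and TAPBP had GGGANTTCC 1 time. PSMB9 had CCAAT only, 1 time. A further TAP1 start site in RefSeq held TTCNNNGAA 1 time, and no member stretch held TGACGTCA or TGACGCA. Among all 35116 RefSeq stretches of this length, 8.11% held GAAANNGAA, 34.6% CCAAT, 0.387% GGGACTTTC, 1.85% GGGANTTCC, 7.66% TTCNNNGAA, 1.85% TGACGTCA and 2.47% TGACGCA. These are matches of letters and say nothing of binding in these cells. Only the exact letters listed were searched. A stretch without a match, such as HLA-B for the interferon and NF-kB letters, can hold such a site in another spelling. HLA-E and NLRC5 were not matched in this table.

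The deposited values were quantile-normalized counts with nearly the same total in each library (13583520 in treated and 13582508 in DMSO and parental columns), so sequencing depth is unknown and no counting interval can be given. Of 11 Ewing sarcoma markers, 10 were tested and their summed level was 52512 to 98669 in treated and 78257 to 102941 in DMSO libraries. The defining marker CD99 was under 10 in all 73 libraries, with a mean of 0.639. The means of the 10 tested markers ran from 34.0132 (NKX2-2) to 43201.5 (CCND1). Whether the CD99 values reflect little CD99 RNA or the assignment of reads was not tested. Blood cell markers summed to 61.1 to 1271 in treated and 71.1 to 219 in DMSO libraries. R2 at time point 10 and R1 at 9 had the lowest Ewing sums (52512 and 61781) and the highest blood sums (1271 and 1214). The other treated libraries had Ewing sums of at least 75973 (R7 at time point 8) and blood sums of at most 271 (R5 at time point 9). PTPRC was under 10 in 62 libraries and CD3E, MS4A1, CD68 and LYZ in all 73. The highest blood marker was NCAM1 (up to 1175), which is also a neural gene. The libraries farthest from the parental line over all tested genes were 5 late ones, R2 at time point 10, R1 at 9, R9 at 9, R9 at 8 and R10 at 10, with root mean square log2 differences of 1.39, 1.33, 1.28, 1.19 and 1.15.

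Levels were compared between genes per kilobase of GENCODE v29 exon, on the scale of the quantile-normalized value. The median over the 72 treated and DMSO libraries was 638 per kilobase for B2M, 310 for TAPBP, 292 for HLA-E, 74.8 for HLA-C, 32.1 for TAP1, 15.9 for TAP2, 4.98 for HLA-B, 1.93 for NLRC5 and 1.24 for PSMB9. With these lengths HLA-B was read at a lower level than HLA-C, and the part of read assignment in this order was not tested. Over the 73 libraries, HLA-B ranged from 0.0256 to 83.1 and NLRC5 from 0.0112 to 211, whereas TAPBP ranged from 890 to 2246 and TAP2 from 53.9 to 173. In bulk RNA, fewer cells expressing a gene and less of its RNA per cell cannot be told apart.

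HLA-B had the largest slope in treated lineages, and it climbed with and without chemotherapy. The parental library had 6.87. At time point 1 all 9 libraries lay below it, with 0.0256, 1.37 and 2.78 as the lowest, median and highest of 6 treated libraries and 1.97, 1.78 and 2.14 in R8, R9 and R10. R1 at time point 1 was listed at the lowest value of its library. The DMSO lineages stayed low at time point 2, with 1.06, 1.34 and 1.17.

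Treated HLA-B values then climbed, and the increase was under way by time point 4. The lowest, median and highest treated values were 0.768, 5.66 and 13.9 at time point 3 (6 libraries), 3.23, 14.7 and 65.0 at time point 4 (7) and 13.8, 22.1 and 76.4 at time point 5 (7). They were 8.58, 49.4 and 83.1 at time point 6 (6) and 20.8, 42.6 and 72.6 at time point 8 (6). At time point 7 the values of R1, R2, R5, R6 and R7 were 13.2, 13.8, 12.2, 41.7 and 78.1. No treated library from time point 5 on was as low as any library of time point 1. The last treated values were 22.0, 36.9 and 42.6 at time point 9 (R1, R4, R5) and 57.6, 28.3 and 21.9 at time point 10 (R2, R5, R6).

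Among DMSO lineages, R8 reached the treated range for HLA-B and R9 stayed lower. R8 had 13.7, 36.3, 78.0, 70.3, 60.1, 51.4 and 14.9 at time points 4 to 10. R9 had 7.60, 1.43 and 13.8 at time points 4 to 6 and 7.63 and 21.8 at 8 and 9. R10 had 16.1 and 15.5 at time points 5 and 6 and 14.4, 11.5 and 27.7 at 8 to 10. R8 therefore peaked at time point 6, like R4 and R6 (74.6) among treated lineages, while R10 was highest at its last sample. The median of time point 8 was 31.0 times that of time point 1 in treated and 7.31 times in DMSO libraries, and in each arm the values of both time points lay apart.

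NLRC5, the transactivator, also started low. The parental library had 2.99. At time point 1 the treated libraries had 2.24, 6.77 and 8.62 as lowest, median and highest (6 libraries), and R8, R9 and R10 had 18.6, 0.0167 and 2.14. The DMSO values were thus scattered at the start, and R9 was listed at its library's lowest value. At time point 2 the DMSO libraries had 0.0112, 1.17 and 3.22 as lowest, median and highest. The 0.0112, in R8, was the lowest NLRC5 value of all 73 libraries, and its part in the R8 slope was not tested. Treated values were 1.99, 19.1 and 41.9 at time point 3, 7.07, 38.2 and 211 at time point 5 and 29.5, 57.1 and 73.7 at time point 8. R4 at time point 5 held the highest value of all 73 libraries, and R1 had only 1.40 at time point 6 and 13.7 at time point 9. R8 rose to 126 at time point 6 and had 43.9 at time point 10, while R9 had 14.3 and 5.33 at time points 8 and 9 and R10 had 22.4, 16.2 and 17.4 at 8 to 10. The median of time point 8 was 8.45 times that of time point 1 in treated and 10.4 times in DMSO libraries.

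**Figure D1:**
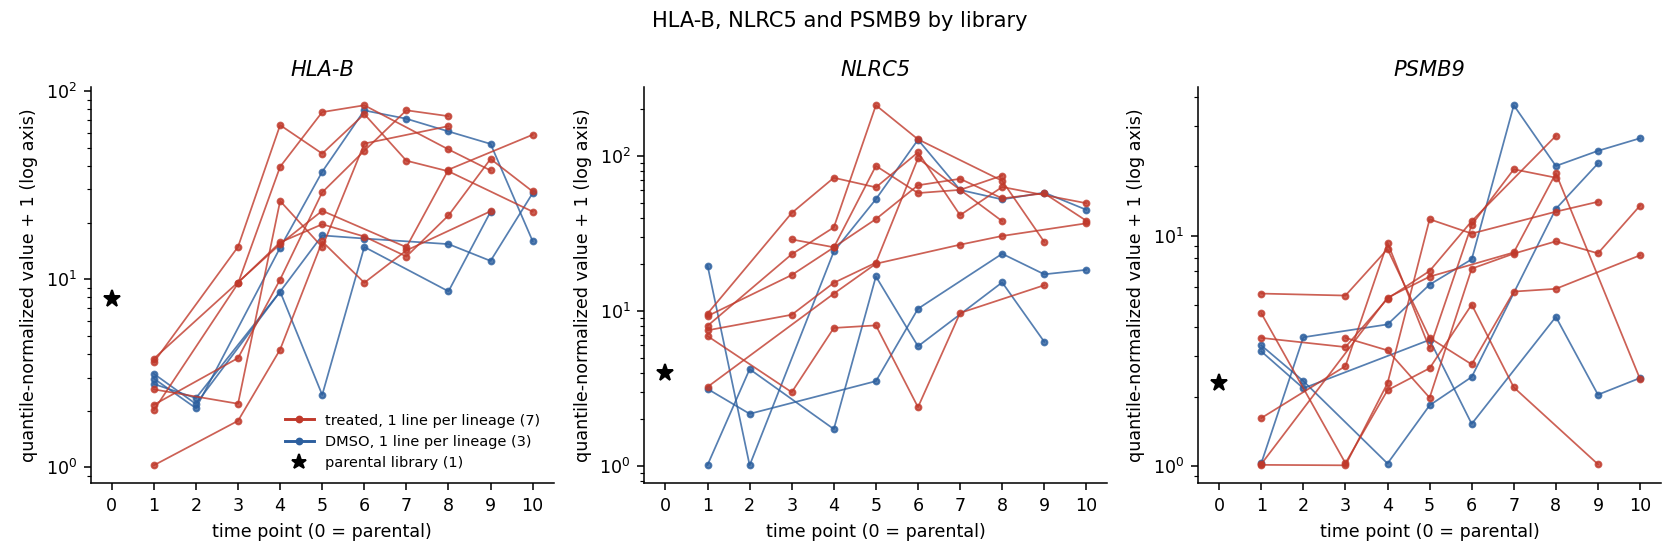
Quantile-normalized value plus 1 (log axis) of HLA-B, NLRC5 and PSMB9 by time point, 1 line per lineage (red, 7 treated; blue, 3 DMSO), with the parental library as a star at 0. HLA-B starts at 0.0256 to 2.78 in the 9 libraries of time point 1 and lies between 7.63 and 72.6 at time point 8.

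PSMB9, the immunoproteasome subunit, was near the detection limit. It was under 10 in 57 of 73 libraries and at its library's lowest value in 7, and the parental library had 1.30. At time point 1 the treated values were 0.00975, 1.60 and 4.61 as lowest, median and highest, and R8, R9 and R10 had 0.0262, 2.34 and 2.14. At time point 8 the treated values were 4.88, 14.3 and 26.2, and R8, R9 and R10 had 19.1, 12.1 and 3.44. In both arms, all values of time point 8 lay above all of time point 1. The highest was 35.9, in R8 at time point 7. In R1 the last sample, at time point 9, was back at 0.0159.

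HLA-C had a smaller range and no library near 0. The parental library had 144. At time point 1 the treated values were 85.2, 98.5 and 180 as lowest, median and highest, and R8, R9 and R10 had 96.7, 80.9 and 72.5. At time point 8 they were 166, 266 and 301 in 6 treated libraries and 253, 166 and 225 in R8, R9 and R10. The time points lay apart in the DMSO arm, and in the treated arm only R1 at time point 1 (180) reached into the range of time point 8. HLA-C was highest in R2 at time point 10 (379) and lowest in R10 at time point 1 (72.5).

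HLA-E was mostly high at time point 1, lower at time points 2 and 3 and higher again later. The parental library had 449, and at time point 1 the treated values were 460, 886 and 1202 as lowest, median and highest, with 1153, 919 and 839 in R8, R9 and R10. Treated values were 448, 542 and 664 at time point 3 and 708, 1144 and 1798 at time point 5. At time point 8 they were 819, 890 and 1200, with a median close to that of time point 1. R1 differed, with 460 at time point 1 and 533 at time point 3. DMSO values at time point 2 were 927, 533 and 523. Late DMSO libraries held the 3 highest HLA-E values, R9 at time points 8 and 9 (2179 and 2604) and R10 at time point 10 (2441), all among the libraries farthest from the parental line. Their part in the HLA-E slopes is given with the tests.

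B2M, the light chain, had 3090 in the parental library, 2728 to 7925 (median 3877) in treated and 2511 to 6210 (median 3881) in DMSO libraries. The highest were R2 at time point 10 (7925), R1 at 9 (6449) and R9 at 9 (6210). TAPBP, which encodes tapasin, was lowest in the first 2 of these libraries, with 890 in R2 and 930 in R1, against 1233 to 2246 in the other treated libraries. TAP1 had 146 in the parental library, 80.5 to 244 (median 148) in treated and 94.5 to 257 (median 170) in DMSO libraries. TAP2 had 127, 64.9 to 166 (median 97.0) and 53.9 to 173 (median 108). At time point 1 all 9 TAP2 libraries lay below the parental one, at 64.9 to 93.8.

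**Figure D2:**
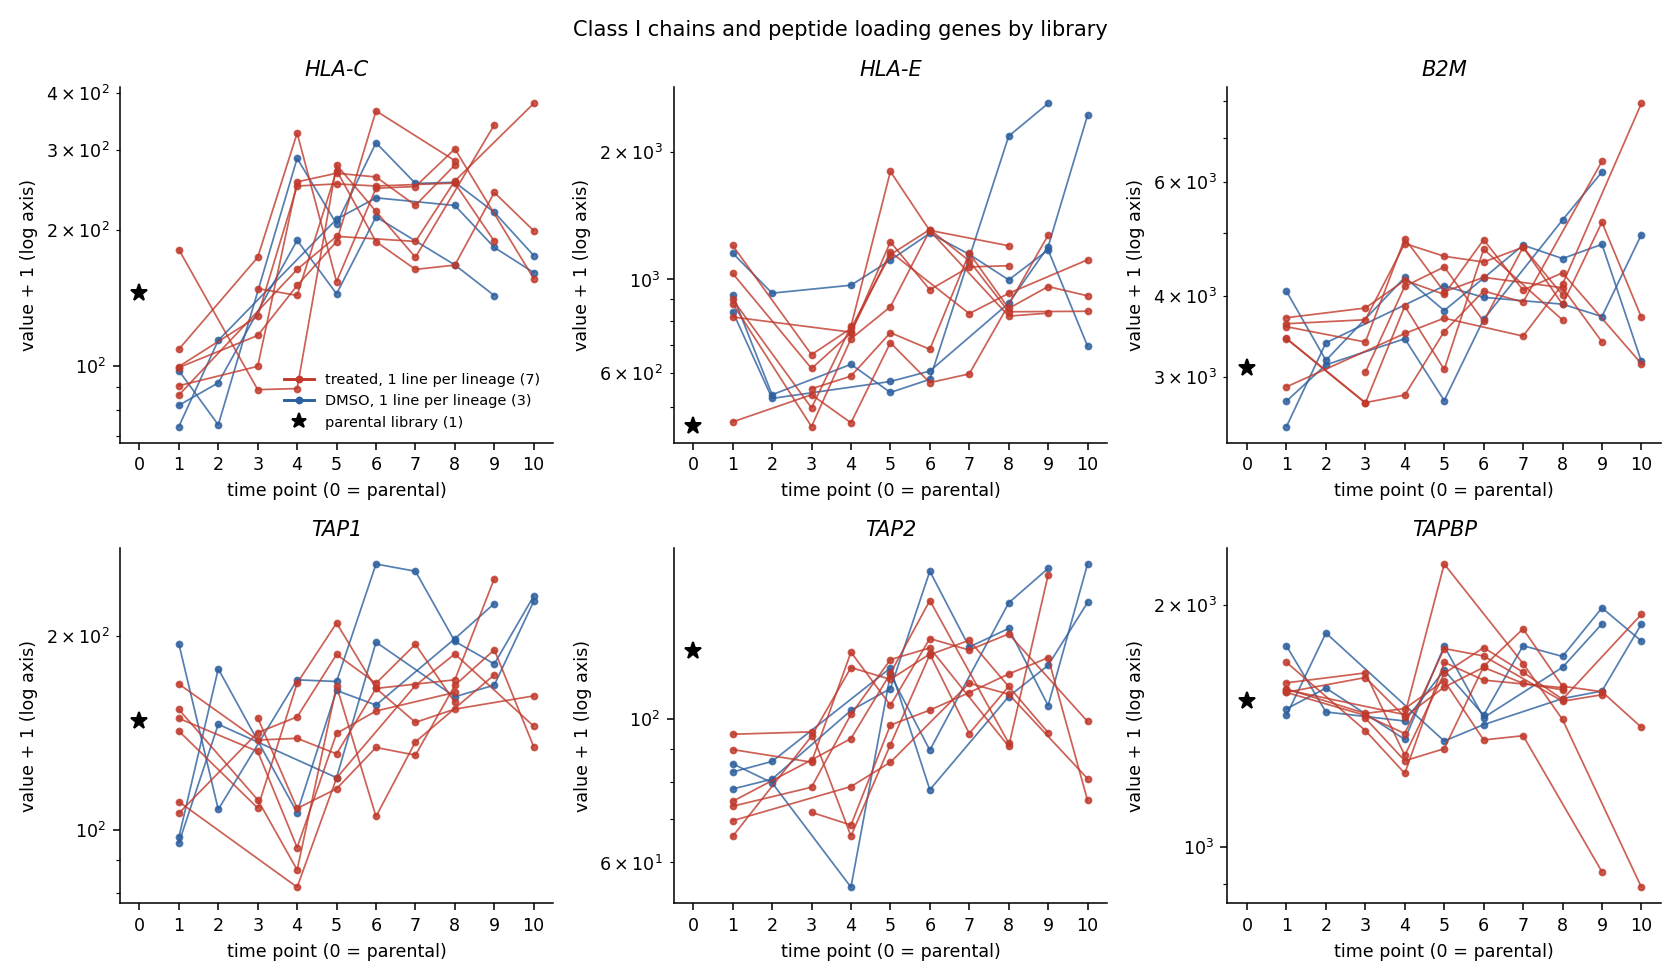
Quantile-normalized value plus 1 (log axis) of 6 members by time point, 1 line per lineage (red, 7 treated; blue, 3 DMSO), parental library as a star. HLA-E is highest in late R9 and R10 libraries (2179 to 2604), and TAPBP falls to 890 and 930 in the late R2 and R1 libraries.

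A slope was fitted through the log2 values of each lineage to ask which members moved as the courses went on. In treated lineages, 7 of the 8 tested members had a rising slope past the threshold and none a falling one. HLA-B rose most, by 0.51 ± 0.070 (SE, log2 of the value plus 1 per time point, 7 lineages, adjusted p = 0.000891). A straight line at this slope comes to 4.62 log2 units over 9 steps, but the treated medians did not climb steadily. They were 49.4 at time point 6, 42.6 at 8 and 28.3 at 10. NLRC5 rose by 0.29 ± 0.044 (adjusted p = 0.00129) and HLA-C by 0.16 ± 0.025 (adjusted p = 0.00135). The peptide transporter genes rose less, TAP2 by 0.070 ± 0.015 (adjusted p = 0.00485) and TAP1 by 0.060 ± 0.015 (adjusted p = 0.00935). HLA-E (0.076 ± 0.027, adjusted p = 0.0467) and B2M (0.053 ± 0.019, adjusted p = 0.0424) were close to the threshold. In treated libraries the median of time point 8 was 1.16 times that of time point 1 for B2M and 1.14 times for TAP1. For HLA-E the medians of time points 1 and 8 were 886 and 890. The values of both time points overlapped for each of these genes. The TAPBP slope was -0.012 ± 0.014 (adjusted p = 0.523). The test was limma on lineage slopes with Benjamini-Hochberg adjustment over all 14565 genes, of which 16.3% rose and 22.8% fell. The median slope of the 8 members was 0.073, against -0.0076 over all tested genes.

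Slopes of single lineages showed the same signs for most members. HLA-B slopes were 0.60, 0.40, 0.77, 0.50, 0.22, 0.25 and 0.84 in R1 to R7, so each was positive and they differed by more than 3 times. R5, with 0.22, had no library at time point 1. NLRC5 (0.12 to 0.46), HLA-C (0.053 to 0.27), TAP1 (0.0071 to 0.096) and TAP2 (0.043 to 0.11) were also positive in all 7 treated lineages, which held for 10.9% of all tested genes. HLA-E and B2M were positive in 6, R6 being the exception for both (-0.010 and -0.0094). TAPBP was positive in 5 and negative in R1 (-0.079) and R2 (-0.074). PSMB9, in a fit without the filter, had a mean slope of 0.28 ± 0.094 (SE) and did not pass (adjusted p = 0.0745 in limma with Benjamini-Hochberg). Its slope was positive in 6 of 7 treated lineages.

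DMSO lineages, grown without chemotherapy, gave rising slopes too. NLRC5 rose by 0.37 ± 0.067 (SE, 3 lineages, adjusted p = 0.0112 in limma with Benjamini-Hochberg), HLA-B by 0.39 ± 0.11 (adjusted p = 0.0399), TAP2 by 0.11 ± 0.023 (adjusted p = 0.0175) and TAP1 by 0.091 ± 0.022 (adjusted p = 0.0285). The slopes of R8, R9 and R10 were 0.46, 0.36 and 0.35 for HLA-B and 0.40, 0.34 and 0.38 for NLRC5. HLA-C (0.13, adjusted p = 0.0537), HLA-E (0.12, adjusted p = 0.0751), B2M (0.074, adjusted p = 0.101) and TAPBP (0.024, adjusted p = 0.435) did not pass. So 4 of 8 tested members rose and none fell, where 6.11% of all tested genes rose and 6.14% fell. The median slope of the 8 members was 0.12, against -0.0091 over all tested genes. PSMB9, in the fit without the filter, had 0.29 ± 0.14 (SE, adjusted p = 0.307).

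The slope calls rested in part on time point 1, on single lineages and, for HLA-B, on the pseudocount. With a pseudocount of 10 the HLA-B slope was 0.28 in treated lineages, where it passed, and 0.19 in DMSO lineages, where it did not (adjusted p = 0.067 in limma). The NLRC5 slope was 0.17 in DMSO lineages with that pseudocount and passed (adjusted p = 0.0483). The DMSO call of HLA-B was also lost without R8 (adjusted p = 0.0863 in limma), R2 (0.0525) or R4 (0.0581), and with no filter (0.114). Without time point 1, HLA-B (0.43, adjusted p = 0.0346 in limma), HLA-C and TAP1 were the treated members that passed, and no member passed in DMSO lineages. Of all 14565 genes, 1191 passed there in treated and 0 in DMSO lineages, so calls were lost over all genes as well. No DMSO member passed without R9, and none without R10, where only 2 DMSO lineages are left. Over all genes, 47 of 14519 and 37 of 14553 passed in these 2 settings. Without the 4 late DMSO libraries of R9 (time points 8 and 9) and R10 (9 and 10), the mean HLA-E slope of the DMSO arm was -0.031 instead of 0.12. HLA-B and NLRC5 had 0.43 and 0.45 there and passed, and the TAP2 slope of 0.063 did not (adjusted p = 0.077 in limma). HLA-E and B2M lost their treated call without any one of R1, R2, R3, R5, R7 or R10, and HLA-E also without R4.

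The difference between the slopes of the arms asks whether chemotherapy changed the rate. No member passed. HLA-B rose by 0.12 ± 0.13 (SE) more per time point in treated lineages (adjusted p = 0.772 in limma with Benjamini-Hochberg), NLRC5 had -0.085 ± 0.080 (adjusted p = 0.745) and TAP2 -0.039 ± 0.027 (adjusted p = 0.649). None of the 8 members had an unadjusted p under 0.05, whereas 1373 of all 14565 genes did, and 0% of all genes passed. The members' median difference was -0.034, against 0.0013 over all tested genes. The treated and DMSO ranges of slopes overlapped for all 9 members. The share of all tested genes with such an overlap was not counted, so this is not shown to be particular to the members.

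**Figure D3:**
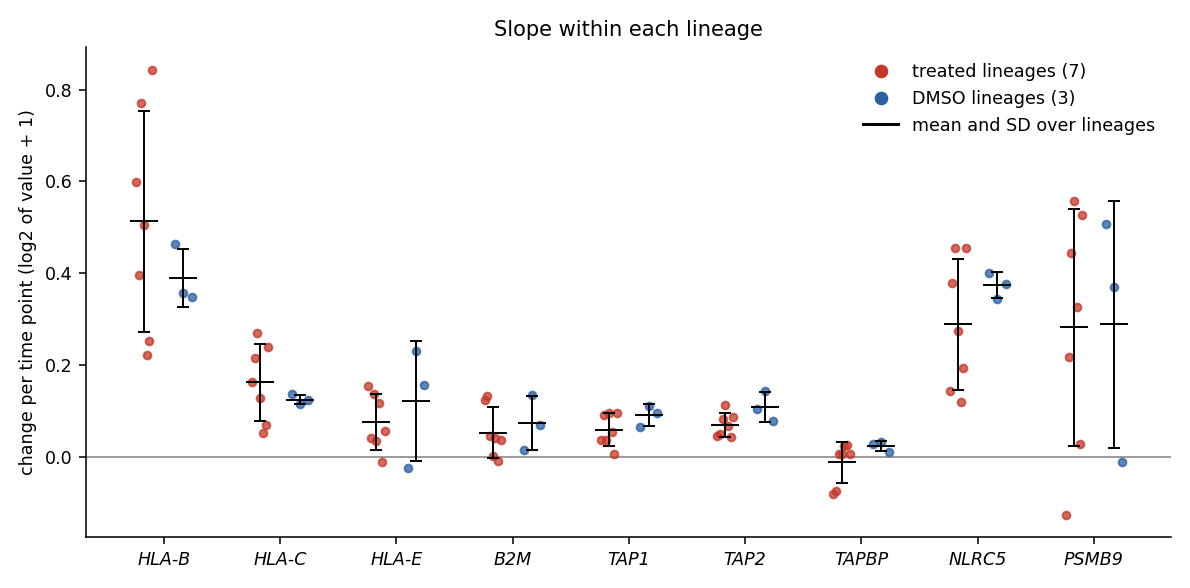
Change per time point (log2 of the value plus 1) in each lineage for the 9 members, with the mean and SD over 7 treated (red) and 3 DMSO (blue) lineages. HLA-B has the highest treated mean (0.51), and the arms overlap for every member.

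Levels over all time points, adjusted for time point, ask for a lasting difference between the arms. No member passed, and 0% of the 14565 genes did (limma with Benjamini-Hochberg), while 1965 genes had an unadjusted p under 0.05. NLRC5 had the largest difference, 1.09 ± 0.64 (SE, log2, treated minus DMSO, adjusted p = 0.462), followed by HLA-B with 0.57 ± 0.44 (adjusted p = 0.566). HLA-C, the 1 member with an unadjusted p under 0.05, had 0.19 ± 0.085 (adjusted p = 0.355, exact 2-sided permutation p = 0.05 over 120 splits of the lineages, unadjusted for the other members). TAP1 (-0.16 ± 0.10), TAP2 (-0.092), TAPBP (-0.072) and HLA-E (-0.079) lay on the other side, and B2M had 0.063. The median over the 8 members was -0.0044, against -0.0036 over all tested genes. Without R8, HLA-C was 0.36 higher in treated lineages and passed (adjusted p = 0.0232 in limma), with 2 DMSO lineages left, and 1352 of 14573 genes passed there. NLRC5 and HLA-B had 2.04 and 1.09 without R8 and 0.43 and 0.14 without R9, and passed in neither case.

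The lineages of each arm differed widely in HLA-B and NLRC5. HLA-B levels (log2, time-adjusted) were 2.61, 4.03, 3.95, 4.66, 3.67, 4.72 and 4.17 in R1 to R7 and 4.25, 2.69 and 3.27 in R8 to R10. NLRC5 levels were 2.60, 3.86, 4.35, 5.35, 4.99, 5.36 and 5.07 in R1 to R7 and 4.88, 2.42 and 2.95 in R8 to R10. R1 was therefore the lowest treated lineage for both. For HLA-B it lay below the DMSO lineages R9 and R10 and for NLRC5 between them, whereas R8 lay among the treated lineages. R1 was the lowest treated lineage for HLA-E as well (9.28, against 9.56 to 9.93 in the other treated lineages). The SD over treated lineages was 0.71 for HLA-B and 1.01 for NLRC5, but 0.088 for HLA-C and 0.084 for B2M.

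**Figure D4:**
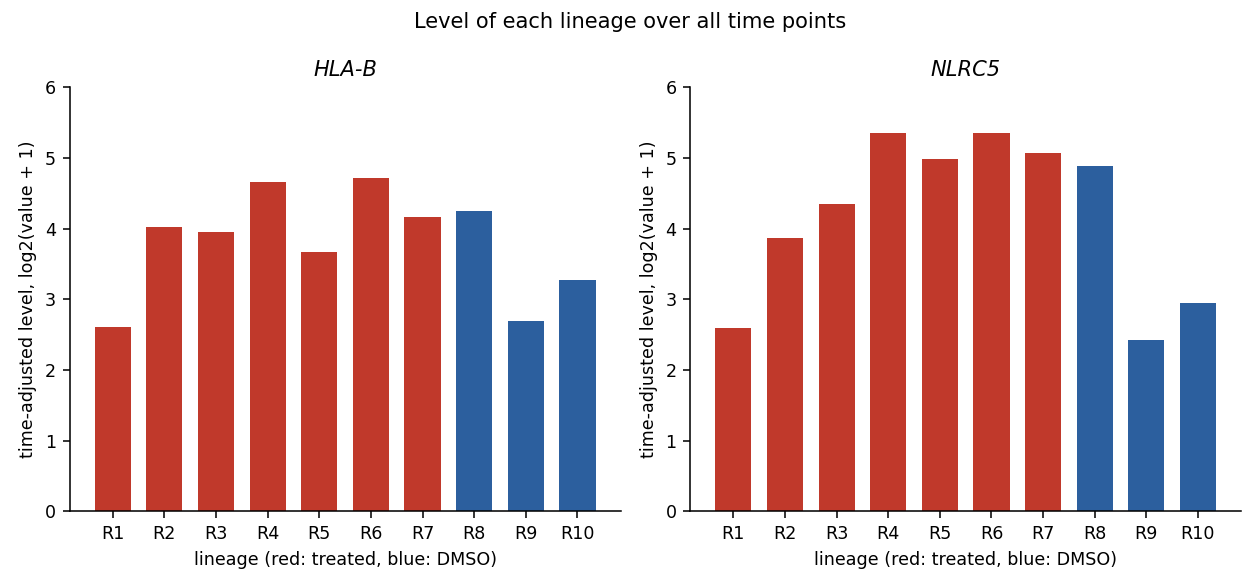
Time-adjusted level (log2 of the value plus 1) of HLA-B and NLRC5 in each of the 10 lineages, treated in red and DMSO in blue. R1, R9 and R10 are the lowest for both genes, and R8 lies within the range of the treated lineages.

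Odd time points follow VDC and even ones EC in the same treated lineages, so both courses were compared with the lineage as a replicate block. No member passed, and 0.00687% of all tested genes did (1 gene, limma with Benjamini-Hochberg; 2120 at an unadjusted p under 0.05). TAP1 was 0.23 ± 0.082 (SE, log2, n = 49 libraries) higher after VDC, with an unadjusted p of 0.0088 and adjusted p = 0.189. HLA-B had -0.51 ± 0.32 (adjusted p = 0.462). Against the same odd and even time points of DMSO lineages, the TAP1 difference was 0.30 ± 0.15 (adjusted p = 0.914) and that of HLA-B -0.70 ± 0.55 (adjusted p = 0.914), and 0% of all genes passed (685 at an unadjusted p under 0.05). The members' median was -0.0043 after VDC minus after EC and -0.066 against DMSO, with 0.00092 and 0.00080 over all tested genes.

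At single time points no member passed either. At time points 1, 4, 5, 6 and 8, 0% of all genes passed in limma with Benjamini-Hochberg, with 376, 450, 197, 568 and 1475 genes at an unadjusted p under 0.05. At time point 9, 1.33% passed and 0.0618% at time point 10, with 2171 and 1713 of all 14565 genes at an unadjusted p under 0.05. Members with an unadjusted p under 0.05 were TAP1 at time point 6 (-0.44), TAPBP at time point 9 (-0.46, adjusted p = 0.104) and TAP1 (-0.64), TAP2 (-0.95, adjusted p = 0.108) and TAPBP (-0.46) at time point 10, all lower in treated libraries. TAP2 at time point 10 had 79.9, 73.9 and 98.3 in R2, R5 and R6 and 173 and 151 in R8 and R10, with no overlap. TAPBP at time point 9 had 930, 1544 and 1558 in R1, R4 and R5 and 1981, 1892 and 1561 in R8, R9 and R10, so R5 and R10 almost met. TAPBP passed at time point 9 without R2 (adjusted p = 0.0424 in limma) or without R5 (0.0453) and at time point 10 without R6 (0.039), and TAP2 passed at time point 10 without R9 (0.0474). Over all genes, 267, 415, 76 and 93 passed in these 4 settings. The TAPBP difference shrank to -0.22 at time point 9 without R1 (adjusted p = 0.554 in limma), and to -0.16 at time point 10 without R2 (adjusted p = 0.882) and -0.12 without 6 late libraries. R2 has no library at time point 9 and R9 none at time point 10, so those 2 calls changed through the shared spread and the adjustment over all genes.

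Members moved together across libraries, with HLA-B and HLA-C closest. Over the 72 treated and DMSO libraries the Pearson correlation of log2 values was 0.813 for HLA-B and HLA-C, 0.772 for HLA-B and NLRC5, 0.653 for HLA-C and B2M and 0.617 for TAP1 and TAP2. Of the 28 pairs of the 8 tested members 26 were positive, with a median of 0.46, and TAPBP was in both negative pairs (-0.211 with B2M and -0.197 with HLA-C). After lineage and time point were removed the median was 0.213, and HLA-B and HLA-C had 0.44, HLA-C and B2M 0.519 and TAP1 and NLRC5 0.50. These are descriptions: libraries share lineages, time points and the normalization, and HLA-B and HLA-C share sequence and annotated span.

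Among all other tested genes, PLK2 (a polo-like kinase, r = 0.875), NR4A2 (an orphan nuclear receptor, 0.848), IFITM1 (an interferon-induced membrane protein, 0.83), IER3 (0.808), BHLHE40 (0.807), JPH2 (0.804), GAS6 (0.80) and RGS2 (0.80) had patterns most like the mean standardized level of the 8 members, over 72 libraries. The median gene had -0.083 and the 95th percentile was 0.544. PSMB8, another immunoproteasome subunit, ranked 28 with 0.767.

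Other genes of the pathway were read against the same shares of all tested genes, 16.3% rising and 22.8% falling in treated and 6.11% and 6.14% in DMSO lineages. Of 13 peptide loading and trimming genes, 2 rose in treated lineages, ERAP2 (an aminopeptidase that trims peptides, 0.23 per time point) and LNPEP (0.069), and 2 fell, TAPBPL (a tapasin relative, -0.078) and TPP2 (a peptidase, -0.051), so the counts in both directions were near or below those shares. None passed in DMSO lineages, where ERAP2 had 0.19 (adjusted p = 0.0803 in limma). Of 6 immunoproteasome and activator genes, PSMB8 (0.22, adjusted p = 0.0213) and the proteasome inhibitor PSMF1 (0.039) rose in treated lineages and none in DMSO lineages, where PSMB8 had 0.23 (adjusted p = 0.132). Of 3 constitutive counterpart subunits PSMB7 rose in treated lineages (0.039). The median slopes of these lists in treated lineages were 0.0033, 0.015 and -0.0018, against -0.0076 over all tested genes.

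Of 11 other class I and class I-like chains 8 were tested, of which 3 rose and 2 fell in treated lineages. Over all tested genes, 16.3% rose and 22.8% fell in treated and 6.11% and 6.14% in DMSO lineages. The falling count was thus near its share. In treated lineages ULBP1, a stress ligand of the NKG2D receptor, rose by 0.39 per time point, MR1, which presents metabolites, by 0.11 and HLA-G by 0.079, while MICA, another NKG2D ligand, fell by 0.089 and the Fc receptor gene FCGRT by 0.086 (8 tested). In DMSO lineages ULBP1 alone passed, with a rise of 0.58 (adjusted p = 0.00133 in limma). Of 3 tested class II pathway genes, CD74, the invariant chain, rose by 0.084 and CTSS, the protease cathepsin S, fell by 0.12 in treated lineages, and neither passed in DMSO lineages.

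Counts of class I regulators are also read against 16.3% rising and 22.8% falling in treated and 6.11% and 6.14% in DMSO lineages. Of 13 class I transcription factors, RELA (0.053) and NFKB1 (0.052), subunits of NF-kB, rose in treated lineages and RFX5, which binds class I and class II promoters, fell (-0.063). In DMSO lineages NFKB1 (0.078) and IRF2 (0.095) rose and RFX5 fell (-0.040). Of 11 interferon signalling genes none rose in either arm, and IFNAR2 (-0.11), TYK2 (-0.057) and IFNAR1 (-0.032) fell in treated and JAK2 (-0.091) in DMSO lineages. Shares of 3 in 11 and 1 in 11 lie close to those of all tested genes that fell.

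Of 23 tested interferon-stimulated genes, 10 rose and 2 fell in treated lineages, where 16.3% of all tested genes rose and 22.8% fell. The largest slopes were those of CD274, which encodes the checkpoint ligand PD-L1 (0.44 per time point), BST2, which encodes tetherin (0.30), the RNA sensor gene IFIH1 (0.26) and the synthetase gene OAS2 (-0.18). In DMSO lineages BST2 (0.34), UBE2L6 (0.26) and IFITM1 (0.17) rose, 3 of 23, where 6.11% of all tested genes rose. The list's median slope was 0.10 in both arms, against -0.0076 and -0.0091 over all tested genes. Markers of fibroblasts, which mesenchymal tumour cells also express, moved in treated lineages: COL1A1 (0.39), COL3A1 (0.12) and THY1 (0.19) rose of 8, and none fell. Their summed level was 16859 to 82960 in treated and 7802 to 33110 in DMSO libraries. The highest treated sums were those of R2 at time point 10 (82960) and R1 at 9 (70188), and the next was 46207 (R7 at time point 8). R2 at time point 10 and R1 at 9 also had the highest B2M and lowest TAPBP values. The median slope of the 8 markers was 0.080 in treated and -0.083 in DMSO lineages, where none rose, 1 fell (COL1A2, -0.10) and 3 slopes were positive. Of 3 tested blood markers, NCAM1 rose in treated (0.47) and CD4 in DMSO lineages (0.23). Of 10 tested Ewing sarcoma markers, 4 fell and 1 rose in treated lineages and 3 fell in DMSO lineages: LIPI (-0.098 and -0.19), STEAP1 (-0.080 and -0.15) and BCL11B (-0.052 and -0.098) fell in both arms, and PRKCB fell (-0.028) and GLI1 rose (0.15) in treated lineages. The part of these markers in the members' slopes was not tested. No gene of these lists passed over all time points or in the slope difference.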

How the data were processed

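Total RNA of 73 libraries was taken with a Qiagen AllPrep kit, and STAR served for alignment and counting, per the labels' protocols. Besides STAR, featureCounts and GRCh38 are named in the submitters' processing notes. The deposited values are a signal, quantile-normalized counts, and how the authors made this normalization is not given in the sources used here. Depth is unknown. Treated columns and DMSO and parental columns have 2 different totals.

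Groups came from the labels. Values were taken as log2 of the value plus 1 if the gene had a mean of 10 or more (14565 genes). Tests used limma 3.58.1 with a trend under R 4.3.3 (and the data.table package, version 1.17.8), with Benjamini-Hochberg adjustment and a threshold of 0.05. Lineage slopes and time-adjusted lineage levels were least squares estimates, compared with the lineage as the unit. Courses were compared over libraries with lineage as a block, and single time points in 1 fit of 72 libraries. By the labels, libraries of a lineage come from the same culture over time. Such libraries had a mean correlation of deviations of 0.0814 (219 pairs). Other pairs within an arm had -0.0152. The parental library entered no test.

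The 9 members and all lists were chosen with earlier results of these data known. The naming rule took all members, per list up to 4 genes past the threshold with the largest change or otherwise the 2 smallest p-values, and the 8 genes most like the members. DDX58 of the interferon list is RIGI in the table. The functions were tested on simulated data. Sequences came from RefSeq (GRCh38.p14), and plots were made in Python 3.11.15 with matplotlib 3.10.9. Alternatives were another pseudocount, filters, scalings, fits, and leaving out lineages, late libraries or time point 1.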

Additional observations from a re-analysis of the deposited data

Results flagged for a closer look

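In groups of 4 to 10 samples, 81 sets of member values, levels and slopes were searched for a sample far from the others, and 6 were found. Chance gives about 1 in 20. HLA-C was high in R1 at time point 1 (180, the other 5 treated libraries 85.2 to 108) and low in R5 at time point 8 (166). B2M was low in R2 at time point 1 (2892) and TAPBP high in R3 at time point 1 (1695). NLRC5 was high in R6 at time point 4 (71.3) and in R4 at time point 5 (211). No lineage level or slope of a member stood apart in this way.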

How the results depend on the processing

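The 7 treated members past the threshold were 7 with pseudocount 10, joint quantile normalization or median-of-ratios scaling. Over all genes, 5739 of 14565, 5697 of 14564 and 5689 of 14566 passed there. The members were 5 without a filter (5492 of 36233 genes) and 4 of 6 with a mean of at least 100 (3822 of 10552). They were 3 without time point 1 (1191 of 14565) and 5 to 7 with a lineage left out (3973 to 6514 genes). In DMSO lineages the 4 became 2 without a filter (427 of 36233 genes) and 2 with a mean of at least 100 (1113 of 10552). They became 0 without time point 1 (0 of 14565) and 0 to 5 with a lineage left out (37 to 2822 genes). With all libraries in 1 fit, 7 passed in DMSO lineages with the lineage as a replicate block and 7 without it. Libraries then count as units, and 5808 and 5579 of all 14565 genes passed in these 2 fits. Without the block the comparison of VDC and EC still gave 0 members, with 44 of 14565 genes past the threshold. Leaving out a lineage gave 0 to 1 members over all time points, at time point 9 and at time point 10. Over all genes, 0 to 1352, 0 to 1325 and 0 to 864 passed there, each highest without R8. Signs turned without the 4 late DMSO libraries for HLA-E (0.21) and TAP2 (0.012) over all time points, the HLA-E slope in DMSO lineages (-0.031) and the TAP2 slope difference (0.0066). Without 6 late libraries (also R1 at time point 9 and R2 at 10) these 4 were 0.18, 0.024, -0.031 and 0.021, and TAPBP turned to 0.020 over all time points and to 0.0058 in its treated slope. TAP1 over all time points was -0.25 to 0.0021 with a lineage left out, turning without R8, and the NLRC5 slope difference turned to 0.029 with pseudocount 10, where the HLA-B slopes were 0.28 and 0.19. None of the turned values had passed, and the cause was not tested. Of 676 alternative values for single members, 606 kept direction and call, but many belong to comparisons that had not passed. Treated slope calls were lost in 10 of 20 alternatives for HLA-E, 8 of 20 for B2M and 1 each for NLRC5 and TAP2. The treated calls of HLA-B, HLA-C and TAP1 were kept in all. DMSO slope calls were lost in 8 of 19 for HLA-B, 5 of 20 each for TAP1 and TAP2 and 3 of 19 for NLRC5. Unknown depth limits what the low values of HLA-B, NLRC5 and PSMB9 can show.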
